A study of Mus musculus with 6 samples.

Results

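Loci outside annotated genes are stretches of the genome that the reads of a library assembled into a transcript although no annotated gene lay there. Each deposited table lists genes of the annotation and, separately, loci that StringTie assembled from the reads. An assembled row was taken as outside genes when its interval overlapped no annotated gene row of the same table and the same chromosome, on either strand. Overlapping intervals were then merged across the 6 tables, and the TPM values (transcripts scaled to a fixed total) of the rows in a merged locus were summed for each library, with 0 where a library lists no such row. This gave 17624 merged loci from 4971 to 6391 rows a library, beside 43432 annotated gene IDs.

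RNA was measured in GC-2spd cells, a line described as mouse germ cell-2 spermatids and labelled with the strain C57BL/6J and the tissue testis, which was immortalized with the SV40 large T antigen and a temperature-sensitive form of p53. The 3 normoxic libraries came from cells kept in 21% O2, and the 3 hypoxic libraries from cells kept in 1% O2, both at 5% CO2; the exposure is given as 48 h for the hypoxia model and is not in the labels of the libraries. Poly(A) RNA was sequenced in pairs. The methods speak of triplicate experiments but do not say which libraries came from separate cultures, so p-values measure the spread between these 3 libraries, which may be technical. The depth was 6.61, 5.75 and 6.20 aligned gigabases in the normoxic libraries and 5.80, 6.72 and 5.92 in the hypoxic ones. None of the 14 spermatocyte markers and none of the 8 spermatid markers checked reached a mean of 1 TPM, whereas 5 of 6 fibroblast and myoid markers and 3 of 6 Sertoli markers did. The libraries are therefore called by the name of the line and not by a stage of spermatogenesis.

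RNA from outside annotated genes has several known sources. Transcription can run past the end of a gene into the sequence downstream, promoters and enhancers can be copied away from genes, and long noncoding RNAs can be missing from an annotation. Processed pseudogenes, copies of spliced mRNAs that were inserted back into the genome, resemble their parent gene so closely that an aligner can place reads of the parent on the copy. In low oxygen, cells stabilize the hypoxia-inducible factors (HIFs), which bind the core sequence RCGTG (R is A or G) near genes of glycolysis, oxygen supply and matrix hydroxylation.

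The sequences below belong to loci to which the results return. The first set shows why reads over a processed pseudogene are uncertain in origin. Each pair is a stretch of 120 aligned bases, without gaps, of a pseudogene transcript of GENCODE release M21 and of the coding sequence of its closest protein-coding gene, with capitals at the bases that differ. Of the stretches of that length, the one with the most differences was taken. Gm9794 and Rpl23, a protein of the large ribosomal subunit, differed at 1 base of the 420 aligned (99.8% identity), and the stretch covers chr6:66875491-66875610 (minus strand, mm10) and coding bases 134 to 253.
Gm9794: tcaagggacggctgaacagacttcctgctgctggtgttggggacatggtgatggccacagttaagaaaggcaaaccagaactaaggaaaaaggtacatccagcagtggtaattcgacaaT
Rpl23: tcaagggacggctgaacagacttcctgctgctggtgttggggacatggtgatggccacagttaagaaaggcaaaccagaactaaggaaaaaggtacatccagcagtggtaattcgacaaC
Gm16374 and Gm8170 are both copies of Gapdh, which encodes the glycolytic enzyme glyceraldehyde-3-phosphate dehydrogenase. Gm16374 was 98.7% identical to Gapdh over 999 aligned bases and differed at 5 bases in the stretch at chr15:4885159-4885278 (plus strand, coding bases 40 to 159), which begins before the assembled locus.
Gm16374: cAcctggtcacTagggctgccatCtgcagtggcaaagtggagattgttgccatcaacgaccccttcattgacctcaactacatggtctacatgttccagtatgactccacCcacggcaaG
Gapdh: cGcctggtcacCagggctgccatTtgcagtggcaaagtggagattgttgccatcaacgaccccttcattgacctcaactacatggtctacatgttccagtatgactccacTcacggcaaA
Gm8170 was 86.6% identical to Gapdh over 1005 aligned positions and differed at 15 bases in the stretch at chr10:82020735-82020854 (plus strand, coding bases 185 to 304).
Gm8170: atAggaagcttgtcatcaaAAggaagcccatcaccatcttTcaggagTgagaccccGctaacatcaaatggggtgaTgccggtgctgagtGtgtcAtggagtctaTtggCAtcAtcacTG
Gapdh: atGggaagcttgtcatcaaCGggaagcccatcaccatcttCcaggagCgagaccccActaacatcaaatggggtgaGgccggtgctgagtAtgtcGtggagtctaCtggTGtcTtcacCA

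The second set is a pair of RefSeq promoters (GRCm38.p6, the build of mm10; 250 bases before to 50 after the start) at loci that were higher in hypoxia. Capitals mark ACGTG or GCGTG on either strand, the letters of the HIF core. CACGTG holds a match on each strand. Both promoters hold matches, whereas some other promoters at higher loci hold none. The promoter of Gm31342, a RefSeq gene between Ndrg1 and St3gal1, lies at chr15:67039343-67039642 on the plus strand. The promoter of Cahm, a noncoding RNA gene beside Qk, lies at chr17:10319669-10319968 on the plus strand.
Gm31342: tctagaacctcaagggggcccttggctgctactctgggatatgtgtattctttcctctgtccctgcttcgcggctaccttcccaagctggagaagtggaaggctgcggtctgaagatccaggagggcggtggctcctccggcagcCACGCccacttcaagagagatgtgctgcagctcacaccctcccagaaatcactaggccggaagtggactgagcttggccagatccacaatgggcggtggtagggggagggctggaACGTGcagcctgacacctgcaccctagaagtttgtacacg
Cahm: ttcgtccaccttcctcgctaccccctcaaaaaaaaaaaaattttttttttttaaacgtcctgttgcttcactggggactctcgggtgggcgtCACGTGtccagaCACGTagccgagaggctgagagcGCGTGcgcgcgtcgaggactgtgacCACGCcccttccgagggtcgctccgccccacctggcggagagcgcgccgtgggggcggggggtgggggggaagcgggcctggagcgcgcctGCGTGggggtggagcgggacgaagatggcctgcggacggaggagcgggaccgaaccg

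Most loci were small, close to a gene and seen once. The median length was 332 bases and 16180 of the 17624 loci had no strand in any library. Of all loci, 13080 (74.2%) were listed in 1 library, 2056 in 2 libraries, 847 in 3, 516 in 4, 415 in 5 and 710 in all 6. The median distance to the nearest annotated gene row was 4013 bases, with quartiles of 1080 and 12886 bases. Within 5 kb of a gene, 6006 loci lay downstream of its end and 3667 upstream of its start, 6568 lay 5 to 50 kb away and 1373 lay farther off. A further 9 were on sequences without a gene row, and 1 merged locus touched a gene row of another table. The name of the set holds for the gene rows of the deposited tables, but not for every annotation: 3141 loci (17.8%) overlapped a gene of GENCODE M21, 3185 others overlapped a RefSeq gene alone and 11298 overlapped neither.

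Each hypoxic library listed fewer loci than any normoxic one. The normoxic libraries listed 5587, 4608 and 4948 merged loci, and the hypoxic libraries listed 4180, 4481 and 4328. The difference of means was 718 loci (5048 ± 497 against 4330 ± 151, SD, n = 3 each; 2-sided exact permutation test, p = 0.1, the smallest value that 3 against 3 libraries allow). Normoxic replicate 1 listed the most; without it the difference was 448 loci. The aligned bases given above overlapped between the groups, and the part of depth in these numbers was not tested. The lowest TPM of a listed row ranged from 0.941 to 1.10 across the libraries, so a locus under about 1 TPM is not listed, and its absence is no measurement of 0.

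The summed TPM of all loci differed less. It was 18432, 18896 and 19049 (normoxia) and 18406, 18366 and 18121 (hypoxia), which is 1.85% of the assembled TPM of a library on average. The groups did not overlap, and the mean was 2.64% lower in hypoxia (exact permutation test, p = 0.1). Loci up to 5 kb downstream of a gene summed to 4595, 4438 and 4521 in normoxia and to 4189, 4151 and 4248 in hypoxia, 7.12% lower without overlap (exact permutation test, p = 0.1). The sum of loci up to 5 kb upstream was also lower without overlap, at 3331 ± 111 in normoxia and 2967 ± 109 in hypoxia (SD, n = 3 each). Loci at 5 to 50 kb overlapped between groups, at 8323 ± 383 and 8509 ± 177. Loci over 50 kb away summed to 2249, 2344 and 2497 in normoxia and to 2223, 2108 and 2157 in hypoxia, 8.49% lower without overlap (exact permutation test, p = 0.1). The decrease of the whole sum was thus not shared by every distance: at least 1000 bases from a gene it was 0.29% (exact permutation test, p = 1), and the 710 loci listed in all 6 libraries summed to 3.42% more in hypoxia (exact permutation test, p = 0.5). It was larger over loci that no library assembled together with a gene, a set chosen after seeing the data: there the whole sum was 8.24% lower and the downstream sum 13.6% lower, both without overlap (exact permutation test, p = 0.1 each).

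**Figure D1:**
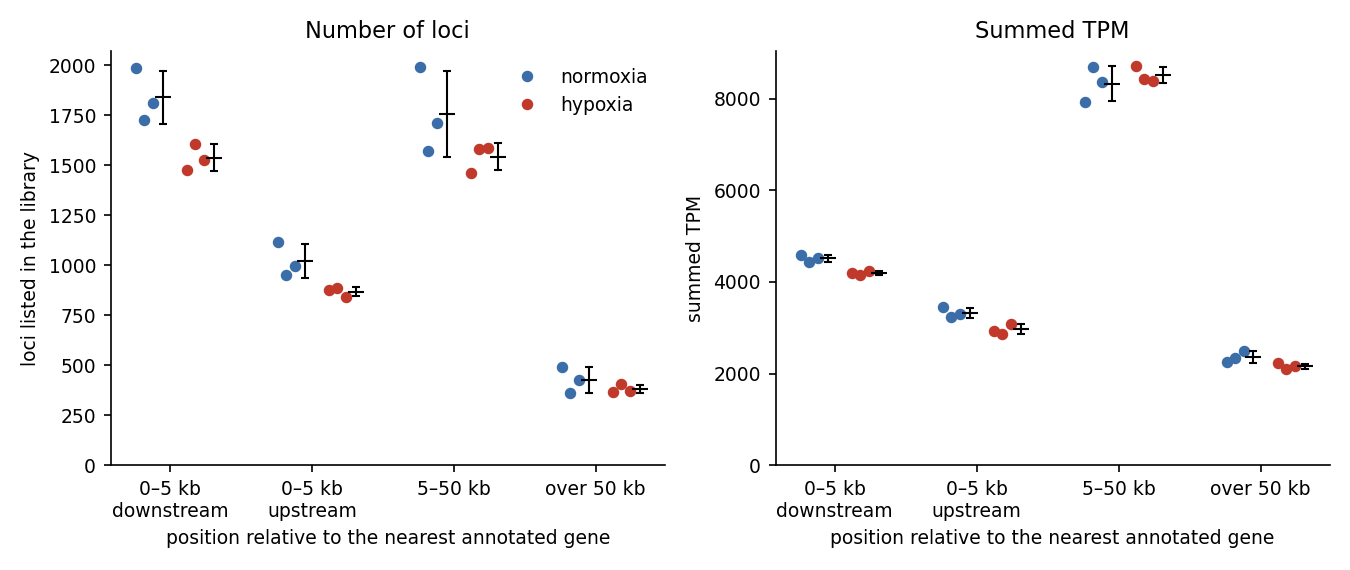
Number of loci listed (left) and summed TPM (right) in each library by position relative to the nearest annotated gene; points are libraries, and black bars are the mean ± SD of 3 libraries. Loci within 5 kb of a gene were fewer and summed to less TPM in each hypoxic library than in any normoxic library, the sums over 50 kb were also lower without overlap, and those at 5 to 50 kb overlapped.

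Few loci held most of the RNA. Only 156 of the 17624 loci reached a mean of 10 TPM and 29 reached 100 TPM, and the 10 highest loci held 23.3% of the summed TPM. The highest, chr6:66875262-66875770, covered the Rpl23 pseudogene Gm9794 shown above. The second, chr3:5860339-5860826, overlapped no gene of either annotation and lay 20005 bases downstream of Gm37350; it stood at 851, 1423 and 790.3 TPM in normoxia and 682, 639 and 616 TPM in hypoxia, which did not overlap but did not pass the test (limma, adjusted p = 0.057). Rpl17-ps3, at chr12:67510733-67511349, and a locus over Rpsa-ps7, at chr17:82373959-82410884, were further copies of ribosomal protein genes among the 10. Of the 10, the Gm9794 and Rpl17-ps3 loci rose in hypoxia, the loci chr18:68692062-68692314 and chr17:54419606-54419900 fell and 6 did not pass; the call on chromosome 18 ended without normoxic replicate 3 or any hypoxic library, with a filter of 0.25 TPM or none, with median-ratio scaling, without a variance trend and with merging on the same strand only.

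One of the 10 highest loci lay beside the p53 pseudogene Trp53-ps. The locus chr17:54419606-54419900, 154 bases upstream of the Trp53-ps row, stood at 484, 399 and 393 TPM in normoxia and at 229, 214 and 192 TPM in hypoxia. All normoxic values were above all hypoxic values, and the fitted difference was -1.0 ± 0.10 on the log2(TPM + 1) scale (SE; limma, adjusted p = 4.1e-04). A neighbour 417 bases downstream of the Trp53-ps row, chr17:54420613-54420852, fell from 158 ± 8.07 to 94.6 ± 1.59 TPM (limma, adjusted p = 8.2e-05). Trp53 itself, which encodes the tumour suppressor p53 and was part of the immortalization of the line, was measured at 3244 ± 96.7 TPM in normoxia and 1973 ± 39.2 TPM in hypoxia (limma, adjusted p = 2.8e-05). Another locus between the first and its neighbour, chr17:54420290-54420499, stood at 0, 24.0 and 22.8 TPM in normoxia and 17.4, 12.4 and 0 TPM in hypoxia. It did not pass (limma, adjusted p = 0.85). Each 0 here is a library without such a row outside genes, and 1 of them joined the stretch to a gene. GENCODE M21 assigns these loci to Trp53-ps, and whether their reads came from the pseudogene or from p53 sequence elsewhere was not tested. The strand given to the first locus varied between libraries, and with merging on the same strand only it lost its call and its sign.

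The comparison of hypoxia with normoxia was made on 1735 loci with a mean of at least 1 TPM, tested together with 13750 annotated genes as log2(TPM + 1) in limma with the Benjamini-Hochberg adjustment at 0.05. In this fit 47.3% of all 15485 features passed, 15.9% as higher and 31.5% as lower in hypoxia. Of the loci, 125 (7.20%) rose and 129 (7.44%) fell, and 1481 did not pass. The groups did not overlap at 395 loci (22.8%), against 58.0% of all features. At an unadjusted p under 0.05, 183 loci were higher and 187 lower. Annotated genes were called more often, at 51.5%. The median log2 fold change was -0.02 over the tested loci, -0.00 over the 710 loci listed in all 6 libraries and -0.12 over all features. The replicates of loci spread more widely: the median within-group SD on the log2 scale was 0.342 for loci listed in all 6 libraries and 0.113 for annotated genes, and the median level was 4.20 TPM and 20.7 TPM, respectively. Since the libraries are bulk RNA, fewer cells with a transcript and less of it per cell cannot be told apart.

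The counts depended on single libraries. Without hypoxic replicate 1, 2 or 3 the number of higher loci was 85, 79 or 84, and without normoxic replicate 1, 2 or 3 the number of lower loci was 77, 76 or 80. The balance of directions depended on scaling: median-ratio scaling moved the median of all features from -0.12 to 0.01 and gave 156 higher and 92 lower loci, and quantile normalization gave 174 and 88.

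**Figure D2:**
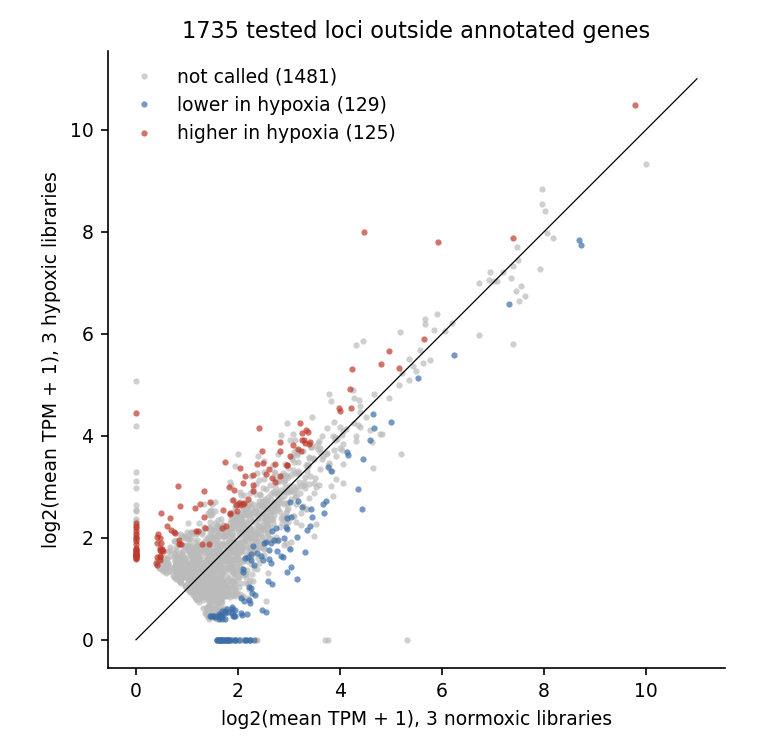
Mean TPM of each tested locus in the 3 hypoxic libraries against the 3 normoxic libraries, as log2(TPM + 1), with the line of equal level; red and blue mark loci called higher (125) and lower (129) in hypoxia. Called loci lie on both sides of the line, and those on an axis were listed in no library of the other group.

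Among the 710 loci listed in every library, 69 rose and 57 fell. This is 17.7% called, beside 14.6% of all tested loci and 47.3% of all features. The largest increase was at chr7:105251881-105254271, a locus of 2391 bases, on the minus strand in some libraries and without a strand in others, that lies 21245 bases upstream of the Olfr687 row and inside a RefSeq model of this olfactory receptor gene. It stood at 16.9, 23.3 and 23.2 TPM in normoxia and 318, 112 and 337 TPM in hypoxia. Each hypoxic value was more than any normoxic one, a ratio of means of 12.1 (log2 difference 3.39 ± 0.42, SE; limma, adjusted p = 0.0010); with merging on the same strand only the call was lost (adjusted p = 0.090). Its level outside the annotated row was far above that of the Olfr687 row, which was at 0 in each normoxic library and at 0.071, 0 and 0 TPM in hypoxia. The locus chr13:67888081-67890035, assembled on both strands in a region without a gene of either annotation, stood at 104.7, 37.8 and 37.6 TPM in normoxia and 237, 255 and 171 TPM in hypoxia. The groups did not overlap, and the means differed 3.69-fold (limma, adjusted p = 0.0073).

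Further loci listed in every library rose by less. A locus over Gm5624, at chr14:44599074-44599861, stood at 3.74, 5.37 and 3.76 TPM in normoxia and 16.1, 17.1 and 17.0 TPM in hypoxia, a 3.90-fold difference (limma, adjusted p = 1.3e-04) that lost its call with merging on the same strand only (adjusted p = 0.46). Its nearest annotated row, Gm16439, rose in the same comparison, from 5.43 ± 0.296 to 14.4 ± 1.32 TPM. A locus over Gm550, chr19:6091806-6099743, began 28 bases downstream of Cdca5, the cohesin protector sororin. It rose from 2.62, 2.13 and 2.33 TPM to 7.82, 14.3 and 8.33 TPM (limma, adjusted p = 0.0012), whereas Cdca5 was at 55.5 ± 0.762 and 59.8 ± 3.33 TPM and did not pass (adjusted p = 0.15). The locus chr15:10419329-10434901, between Agxt2 and Dnajc21, stood at 4.52 ± 1.99 and 12 ± 2.71 TPM (limma, adjusted p = 0.016). Its call ended without hypoxic replicate 1 or 2 (limma, adjusted p of up to 0.054) and without a filter. Here and below, the loci listed in every library were ranked after their values were seen.

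The largest decrease among loci listed in every library was at chr4:133095490-133101614, which overlaps no gene of either annotation. It stood at 25.3, 23.5 and 13.2 TPM in normoxia and at 4.34, 5.44 and 4.88 TPM in hypoxia, with no overlap and a ratio of means of 0.236 (log2 difference -1.83 ± 0.24, SE; limma, adjusted p = 0.0012). AI506816, a long noncoding RNA gene of GENCODE M21, held the locus chr5:23698332-23700394, which fell from 8.33, 6.44 and 6.63 TPM to 2.03, 2.59 and 2.67 TPM (limma, adjusted p = 7.0e-04), a call lost with merging on the same strand only (adjusted p = 0.88). A locus 15687 bases downstream of Fgfr4, chr13:55184447-55189150, fell from 19.6 ± 7.0 to 6.71 ± 0.155 TPM (limma, adjusted p = 0.0062). The row of Fgfr4, a fibroblast growth factor receptor, was near 0 in both groups, at 0.064, 0 and 0 TPM in normoxia and 0 in each hypoxic library.

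Some decreases ran beside the row of a gene that also fell, as 34.5% of all tested annotated genes did. The locus chr15:82228731-82233545, over Gm49503 and 233 bases downstream of Cenpm, which encodes a centromere protein, stood at 6.20 ± 2.05 and 2.11 ± 0.663 TPM, and Cenpm at 58.6 ± 5.79 and 25 ± 1.70 TPM; both fell by 1.20 on the log2 scale. The locus chr17:87089941-87107350 ends 328 bases upstream of the row of Socs5, a suppressor of cytokine signalling. In RefSeq it overlaps Gm30510 and Socs5, so it lies outside Socs5 only by the deposited rows. The locus stood at 14.3, 12.3 and 9.12 TPM in normoxia and 2.99, 8.99 and 1.81 TPM in hypoxia (limma, adjusted p = 0.045). Its highest hypoxic value was just under its lowest normoxic value, and leaving out normoxic replicate 1, 2 or 3 or hypoxic replicate 1 or 3 ended the call, as did a filter of 0.25 TPM or none, median-ratio scaling, quantile normalization, no variance trend and merging on the same strand only. The Socs5 row fell by 1.32 on the log2 scale.

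Other called loci were listed in 1 group alone, where a fold change has no base. Of the 17624 loci, 85 were listed in the 3 hypoxic libraries and in no normoxic library, and 123 in the 3 normoxic libraries and in no hypoxic one. Of these, 25 and 27 reached the mean of 1 TPM and were tested; they passed this filter through the listed group, so they had to differ. A missing value does not always mean missing RNA, since a library can assemble the same stretch together with a gene, and the row is then not counted as outside genes. This held in at least 1 library of the other group for 20 of the 85 and 24 of the 123 loci. Over all tested loci, 1976 of 10410 values were missing, and for 518 of them a row joined to a gene covered the locus.

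The highest level reached by a locus of 1 group was at chr12:54892338-54892928, which has 591 bases and begins 60 bases downstream of Baz1a, a subunit of a chromatin remodeller. It was listed at 20.8, 23.1 and 18.4 TPM in hypoxia and in no normoxic library, where replicate 3 joined it to a gene; merging on the same strand only ended its call. Baz1a stood at 18.5 ± 0.831 and 15.9 ± 2.55 TPM and did not pass (limma, adjusted p = 0.19). A pair of neighbouring loci, chr17:22377430-22385910 and chr17:22387033-22389710, followed the end of the row of Zfp758, a zinc finger gene. Both overlap Zfp758 in RefSeq, so they lie outside it only by the deposited rows. The first stood at 0, 4.59 and 0 TPM in normoxia and 7.21, 5.66 and 6.86 TPM in hypoxia. The second was listed outside genes in no normoxic library and at 3.83, 1.99 and 5.27 TPM in hypoxia. The call of the first ended when any library other than normoxic replicate 2 was left out, and with a pseudocount of 0.25, a filter of 0.25 TPM or none, no variance trend or the replicate block. The Zfp758 row fell (limma, adjusted p = 0.025), and normoxic replicate 1 joined both loci to a gene while normoxic replicate 2 joined the second. A further 3 loci among the 10 largest increases were listed in no normoxic library, without such joining. The one 9558 bases downstream of Dnajc21, a cochaperone of ribosome assembly, stood at 4.15, 2.72 and 3.36 TPM in hypoxia. The one 1755 bases downstream of the row of the spindle checkpoint gene Mad2l1 stood at 4.8, 1.67 and 4.29 TPM, and the one over Morc2b at 3.88, 6.34 and 1.51 TPM. In GENCODE M21 the locus near the Mad2l1 row overlaps Mad2l1 itself, and merging across gaps of up to 1000 bases ended its call. The other 2, near Smim8 and Rpl28-ps4, were listed in 1 normoxic library each, at 2.32 and 1.24 TPM, and at 4.01 to 12 TPM in hypoxia. Dnajc21 rose from 34.1 ± 3.42 to 71.5 ± 2.08 TPM, whereas the Mad2l1 row did not pass (limma, adjusted p = 0.21).

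In the other direction, the locus chr4:89312360-89316791 over the RefSeq gene Gm12610, 1327 bases upstream of the cell cycle inhibitor gene Cdkn2b, was listed at 5.50, 4.52 and 1.97 TPM in normoxia and was not listed as outside genes in hypoxia. Each of the 3 hypoxic libraries joined it to a gene, so its call is no measure of less RNA. The locus chr4:156206660-156210387, over the RefSeq gene Perm1 and 1508 bases downstream of AW011738, was listed at 4.32, 3.25 and 2.58 TPM in normoxia and in no hypoxic library, with no joining; AW011738 fell by 1.54 on the log2 scale (limma, adjusted p = 3.6e-04). Tincr, a noncoding RNA known from epidermal differentiation, held the locus chr17:56554060-56559995, 969 bases downstream of Safb2. It was at 3.25, 6.36 and 5.01 TPM in normoxia and at 1.35, 0 and 0 TPM in hypoxia, while Safb2 rose (limma, adjusted p = 0.017). Similarly, a locus 2164 bases downstream of Rbpj, the DNA-binding partner of Notch, was listed at 2.25, 7.10 and 1.73 TPM in normoxia and in no hypoxic library, while Rbpj rose (limma, adjusted p = 0.011). The locus of Gm7962, an annotated pseudogene 50228 bases upstream of Selenop, stood at 6.74, 11.5 and 5.54 TPM in normoxia and at 0, 3.89 and 0 TPM in hypoxia. Its call ended without normoxic replicate 1 or 2 or hypoxic replicate 1 or 3, and without a filter. The other 5 of the 10 largest decreases stood at 1.18 to 7.18 TPM in normoxia, and 4 of them were listed in no hypoxic library. They include one that begins 54 bases downstream of Mpv17l, which also fell.

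**Figure D3:**
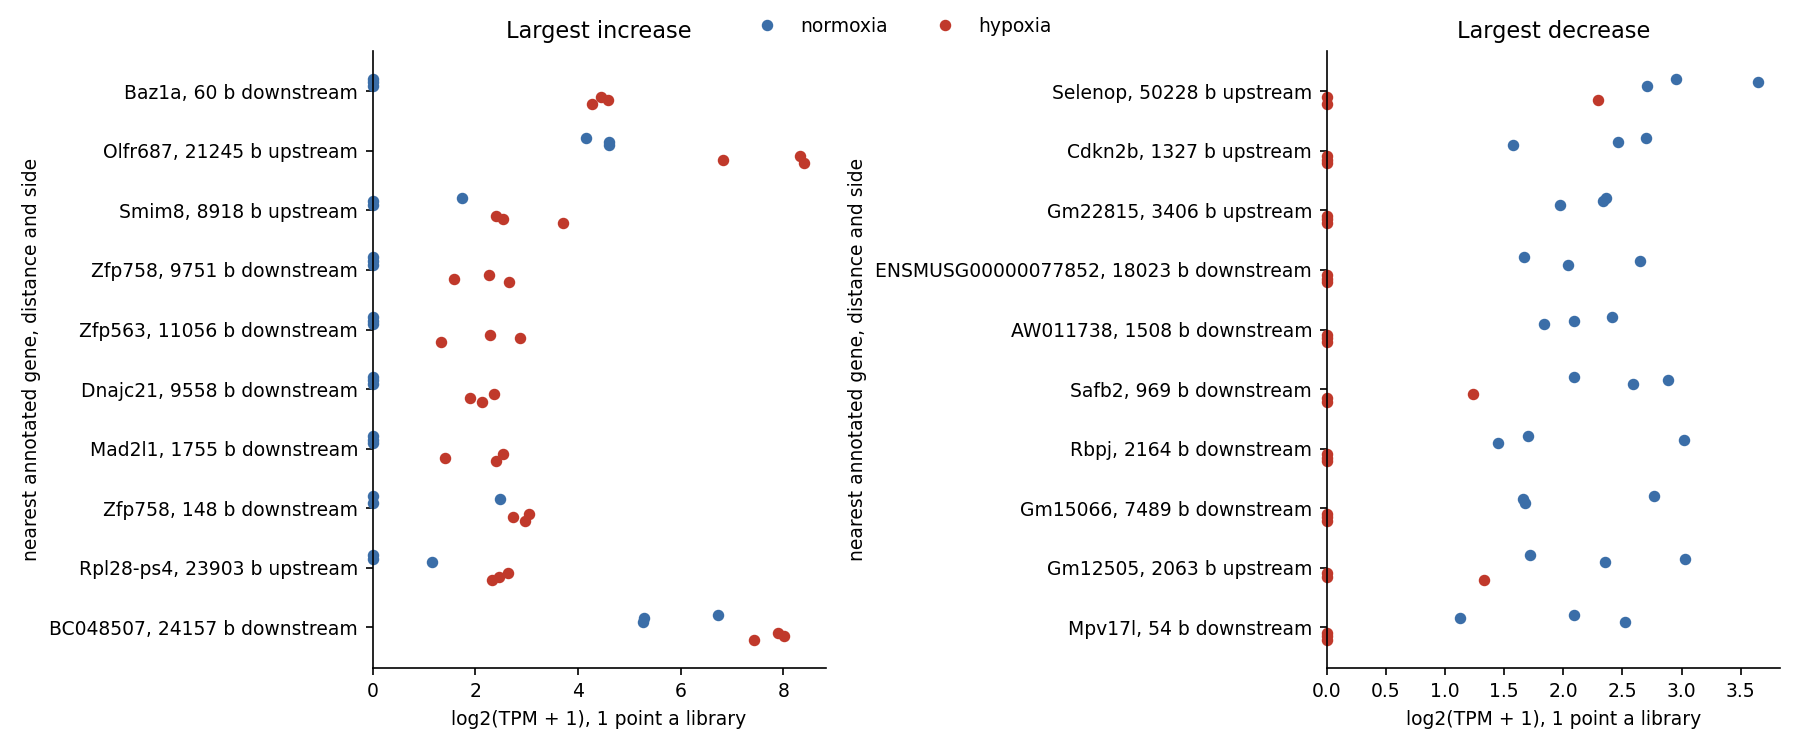
Levels of the 10 loci with the largest fitted increase and the 10 with the largest fitted decrease, in log2(TPM + 1), with 1 point for each normoxic (blue) and hypoxic (red) library; rows name the nearest annotated gene, the distance in bases (b) and the side. A point at 0 is a library without a row for the locus outside genes, and the locus near Olfr687 and the one near BC048507 were listed in all 6 libraries.

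The changes of loci just outside a gene correlated weakly with those of the gene. Of the 717 tested loci up to 5 kb downstream of a gene, 34 rose and 56 fell; of 299 up to 5 kb upstream, 18 rose and 20 fell; of 534 at 5 to 50 kb, 57 rose and 39 fell; and of 183 farther away, 16 rose and 14 fell. As shares called, these were 12.6%, 12.7%, 18.0% and 16.4%, all near the 14.6% over all loci. For 599 downstream loci the nearest gene was also tested, and across them the log2 fold changes of locus and gene correlated with r = 0.09 (Spearman's rho = 0.07), which is a description over loci that share the 6 libraries. Over the 178 downstream loci listed in every library, r was 0.24. At 5 to 50 kb it was -0.03 over 239 loci. Of the 30 higher downstream loci with a tested gene, 9 had a gene that rose and 10 a gene that fell. Of the 40 lower ones, 6 and 14 did, respectively. Over all tested annotated genes, 17.0% rose and 34.5% fell.

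Few tested loci neighboured known HIF targets. Of 62 listed HIF target genes, 60 were tested and 50 rose, 2 fell and 8 did not pass, with a median log2 fold change of 1.33. Of all features tested, 15.9% were higher and 31.5% lower. The listed genes were the nearest gene, within 50 kb, of 77 loci, of which 5 were tested, 1 rose and 1 fell, beside 7.20% and 7.44% of all tested loci. The locus called higher, chr7:46855666-46859096 over the RefSeq gene Gm39011, began 38 bases downstream of Ldha, the lactate dehydrogenase subunit of glycolysis. It was listed in no normoxic library and at 4.26, 1.68 and 1.24 TPM in hypoxia, so it passed the filter through the hypoxic group alone and had to differ, while Ldha rose from 1142 ± 83.5 to 2404 ± 75.5 TPM. The locus that fell, chr10:59381800-59383976, lay 8495 bases downstream of P4ha1, a collagen prolyl hydroxylase. It stood at 5.00, 4.97 and 4.63 TPM in normoxia and 2.61, 3.01 and 2.65 TPM in hypoxia, without overlap (log2 difference -0.64 ± 0.11, SE; limma, adjusted p = 0.0038; 0.74 with merging on the same strand only), while P4ha1 rose by 1.22. A locus 263 bases downstream of Jmjd6, a lysyl hydroxylase gene that rose, did not pass, at 3.40 ± 2.40 and 2.82 ± 1.03 TPM. Loci upstream of the histone demethylase gene Kdm3a and of Lox, the collagen crosslinking enzyme, did not pass either, and 5 of 6 libraries joined the latter to a gene.

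A group of 4 loci called higher lay between Gm2895 and St3gal1, their nearest annotated genes. The HIF target Ndrg1, a gene known for its induction in low oxygen, lies beyond Gm2895 and outside the 50 kb used above. The loci lay between chr15:67039889 and chr15:67072052, 70249 to 102412 bases upstream of the Ndrg1 start. The region was chosen after the calls were seen, as the one with the most called loci of 1 direction at gaps of at most 50 kb. Of the 4 loci, 3 were listed in no normoxic library; they passed the filter through the hypoxic group alone and had to differ. The first, chr15:67039889-67043112, begins 296 bases after the RefSeq start of Gm31342 whose promoter is printed above, was on the plus strand, and was listed in no normoxic library and at 1.69, 2.63 and 1.71 TPM in hypoxia. The second, chr15:67043125-67050754, stood at 0.985, 1.45 and 0 TPM in normoxia and 6.38, 5.87 and 3.35 TPM in hypoxia (limma, adjusted p = 0.0086). The third and the fourth were listed in the 3 hypoxic libraries alone, at 1.39 to 2.82 and 1.59 to 2.83 TPM. The same held for an untested locus between them, at 1.35 to 1.77 TPM. Other untested loci between them were listed in 1 or 2 libraries each, some of them normoxic, with normoxic values of 1.01 to 1.55 TPM. Ndrg1 rose from 73.6 ± 5.48 to 573 ± 26.3 TPM, and St3gal1, a sialyltransferase gene on the far side, fell from 35.8 ± 2.46 to 24.5 ± 1.82 TPM. Gm2895, which is nearest on the near side, stayed under 0.218 TPM in every library.

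**Figure D4:**
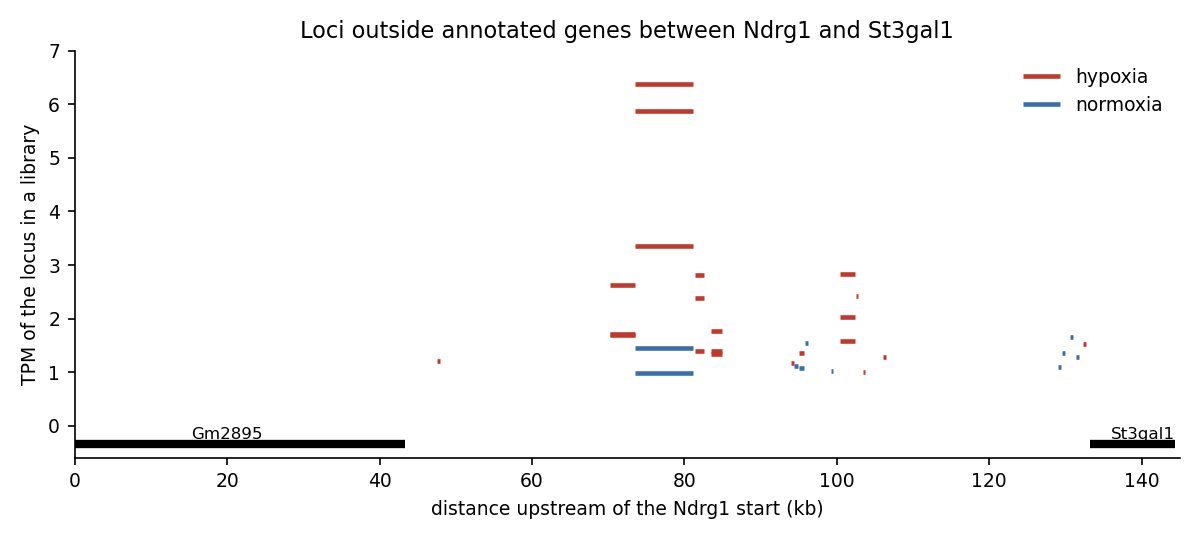
Loci outside annotated genes upstream of Ndrg1; the x axis is the distance from the Ndrg1 start in kb, each coloured bar spans a locus at its TPM (y axis) in 1 normoxic (blue) or hypoxic (red) library that lists it, and black bars are annotated genes. From 70 to 103 kb the hypoxic bars lie at up to 6.38 TPM, and normoxic bars reach 1.55 TPM.

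Loci over processed pseudogenes were set beside their parent genes. Of the tested loci, 137 held at least 50% of a processed pseudogene with a match among protein-coding genes, at a median identity of 97.8% to the closest coding sequence. Of these, 15 rose, 6 fell and 116 did not pass, a share near that of all loci. A locus can reach far beyond its pseudogene, and which part its TPM came from was not tested. For 132 the parent was tested, and over them the log2 fold changes of locus and parent correlated with r = 0.37 (Spearman's rho = 0.43). Over the 103 with at least 95% identity r was 0.49. These values are descriptions, since several loci share a parent and all share the libraries, and reads of a parent placed on its copy would count for the locus; how many did was not tested.

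Those copies of ribosomal protein genes that passed the test rose. Of 35 such loci 7 rose, none fell and 28 did not pass, with a median log2 fold change of 0.21, where 7.20% of all tested loci rose; of their 27 parents 23 rose and none fell, with a median of 0.22 over the same loci, where 17.0% of annotated genes rose. The Gm9794 locus shown above stood at 601, 1001 and 1054 TPM in normoxia and at 1540.3, 1501 and 1277 TPM in hypoxia. The groups did not overlap (log2 difference 0.74 ± 0.22, SE; limma, adjusted p = 0.031), and the call was lost without hypoxic replicate 1 or 2, with the replicate block, without a filter, with quantile normalization, without a variance trend and with merging on the same strand only. Rpl23 stood at 1088 ± 31.8 and 1266 ± 112 TPM, beside 885 ± 248 and 1439 ± 142 TPM for the copy. Rpl17-ps3 rose from 167 ± 14.4 to 234.0 ± 18.7 TPM (limma, adjusted p = 0.0036), and Rpl17, a protein of the large subunit, from 1404 ± 33.4 to 1619 ± 22.0 TPM. With merging on the same strand only, the Rpl17-ps3 locus lost its call and its sign.

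Loci over copies of Gapdh moved in opposite directions. Gapdh rose 1.58 ± 0.04 on the log2 scale (SE; limma, adjusted p = 4.1e-06), from 303 ± 13.7 to 910 ± 9.65 TPM. The locus of Gm16374, the copy of 98.7% identity, stood at 4.72, 4.28 and 9.39 TPM in normoxia and 16.2, 13.4 and 11.6 TPM in hypoxia, and rose by 1.10 ± 0.27 (limma, adjusted p = 0.016). This call ended without normoxic or hypoxic replicate 1, without a filter and with merging on the same strand only. The locus of Gm8170, the copy of 86.6% identity, stood at 4.60, 3.11 and 4.12 TPM in normoxia and 2.84, 1.14 and 1.31 TPM in hypoxia, and its log2 difference was -0.88 ± 0.26 (limma, adjusted p = 0.034). This call ended under median-ratio or quantile scaling, without a filter, with merging across gaps of up to 1000 bases, and without normoxic replicate 1 or 3 or hypoxic replicate 2 or 3. The locus begins at chr10:82017353 and the copy at chr10:82020551, so most of the locus lies outside the copy. Groups of neither locus overlapped. Of the other copies, the locus of Gm9619 (90.4% identity) rose and that of Gm5173 (87.7%) did not pass. Among the single libraries, only leaving out normoxic replicate 1 did not end the Gm9619 call. That call also ended with a pseudocount of 0.25, a filter of 0.25 TPM or none, no variance trend and merging on the same strand only. The locus of Gm5182, 99.2% identical to part of Acaca, the first enzyme of fatty acid synthesis, fell from 31.1 ± 3.27 to 18.2 ± 5.08 TPM (limma, adjusted p = 0.014), and Acaca from 37.6 ± 6.64 to 21.2 ± 6.54 TPM. With merging on the same strand only, the Gm5182 locus lost its call and its sign, and without a filter it lost its call. Against its parent, Gm7684 rose from 5.65 ± 0.875 to 9.84 ± 0.995 TPM, while March5, a mitochondrial ubiquitin ligase to which it is 95.5% identical, fell from 151 ± 9.90 to 109.7 ± 4.72 TPM.

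**Figure D5:**
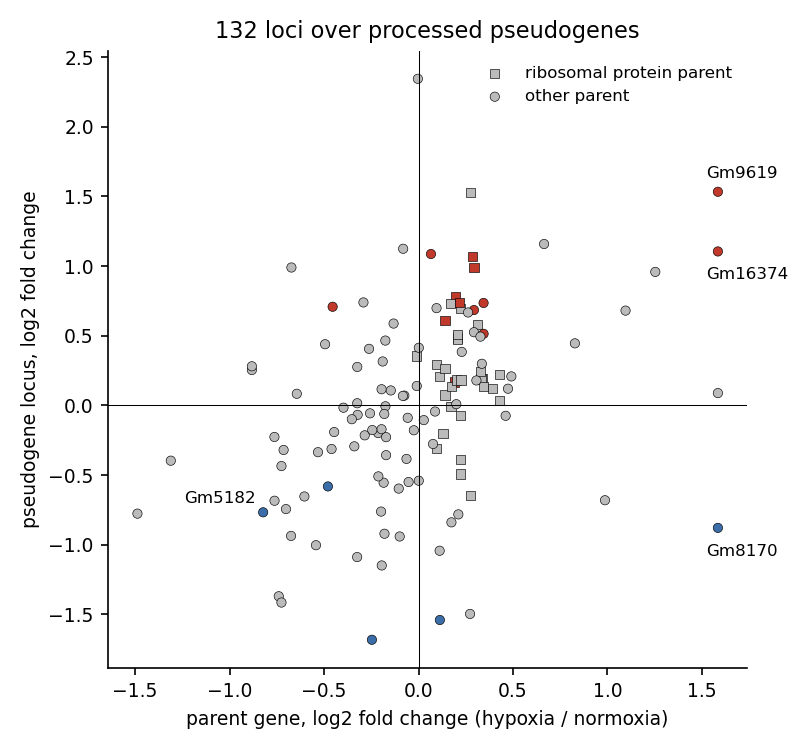
Log2 fold change (hypoxia over normoxia) of 132 loci over processed pseudogenes against that of their parent gene; squares have a ribosomal protein gene as parent, and red and blue mark loci called higher and lower in hypoxia. Points with Gapdh as parent lie at 1.58 on the x axis, where Gm9619 and Gm16374 are above 0 and Gm8170 is below.

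RefSeq transcript starts lay inside or within 500 bases of 30 called loci. At the 16 higher loci there were 22 promoter windows, of which 12 (54.5%) held ACGTG or GCGTG on either strand, and at the 14 lower loci there were 18, of which 3 (16.7%) did. The share among all 32851 windows of the same length was 43.8%. Among those with a match were the promoters of Gm31342 and Cahm printed above, which hold 2 and 6 matches. The locus at Cahm, chr17:10319905-10321889, had no strand in any library and also overlaps the RefSeq gene Gm46608. It was listed in every library, at 1.13, 1.34 and 1.31 TPM in normoxia and at 2.23, 4.03 and 3.84 TPM in hypoxia, without overlap (limma, adjusted p = 0.013). Its call ended without hypoxic replicate 2, without a filter and with merging across gaps of up to 1000 bases. This locus lies 543 bases upstream of Qk, the gene of an RNA-binding protein, which did not pass (limma, adjusted p = 0.28). Windows of 1 gene overlap one another, so the counts are of windows and not of independent promoters. Some of the loci in each direction, such as the one at Gm31342, were listed in 1 group alone and had to differ. Counted by locus, 9 of the 16 higher and 3 of the 14 lower loci had a window with a match. No such count was made for loci that were not called, and the share over all windows is not limited to tested loci. Whether matches are more frequent at higher loci was therefore not tested.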

How the data were processed

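Poly(A) RNA of GC-2spd cells was sequenced in 6 libraries, 3 normoxic and 3 hypoxic. The authors filtered the reads with cutadapt, aligned them to mm10 with HISAT2 and assembled each library with StringTie; versions and the annotation release are not given in the sources used here. The deposited TPM lists assembled loci, which sum to 1000000 in each library, and annotated genes, which repeat part of them, so the column was handled as a score and not as a TPM table of a single sum. The deposited FPKM served as an alternative and the deposited coverage, a signal not scaled for library size, to calculate the aligned bases. The files hold no counts, so no counting interval was calculated, and 3 libraries a group limit the precision.

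Rows outside genes were merged on any overlap. Loci and genes with a mean of at least 1 TPM were tested together as log2(TPM + 1) with limma 3.58.1 (variance trend, 2-sided) in R 4.3.3; a pseudocount of 1 understates the change of low loci. Sums and counts per library were compared by exact permutation tests. Pseudogenes of GENCODE M21 were matched to coding sequences with BLAST+ 2.17.0. The steps were tested on simulated data. Loci were named as the 10 of highest mean TPM, the 10 of largest increase and of largest decrease among called loci whose groups did not overlap and whose higher mean reached 2 TPM, and those whose nearest gene within 50 kb was a HIF target. The members and lists were chosen with earlier results of these data known. A check of polyadenylation signals at the ends of loci needs a genome sequence and was not analysed here.

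Same-numbered libraries did not deviate together (correlations of 0.01 to 0.05 over all features), so the fit had no replicate block. Alternatives were another pseudocount, filter, unit, scaling and variance model, the block, other ways of merging and choosing loci, and leaving out each library.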

Additional observations from a re-analysis of the deposited data

How the results depend on the processing

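The numbers of called loci, 125 higher and 129 lower, stayed within 1.5 times under a pseudocount of 0.25, no filter, median-ratio scaling, quantile normalization, no variance trend, either other way of merging, no overlap with a gene row of any file, a distance of at least 1000 bases and, chosen after seeing the data, loci that no library assembled together with a gene. They moved further with FPKM (66 higher, 76 lower, of 726 loci over the filter), with loci listed in all 6 libraries (76 and 67, of 710), and, in 1 direction, with a filter of 0.25 TPM (197 lower) and with loci that overlap no gene of GENCODE M21 (80 higher); fewer or more loci were tested in these. Similar numbers did not mean the same loci without a filter. There 108 loci were higher and 142 lower of 17624 tested (1.42%), and only 52 of the 125 higher and 51 of the 129 lower loci kept their call. Leaving out 1 library gave 79 to 128 higher and 76 to 148 lower loci. With the replicate block 119 loci were higher and 118 lower, within 1.5 times of the fit without it. The number of merged loci kept within 1.5 times of 17624 except for those listed in all 6 libraries (710), for which the number listed per library cannot differ. The difference in summed TPM turned from -495 to 383 for loci listed in all 6 libraries; leaving out 1 library gave -676 to -367, for the number listed -938 to -448, and for the sum downstream of a gene -362 to -283. Loci that no library assembled together with a gene gave -1132 for the summed TPM (8.24% lower) and -436 for the sum downstream of a gene (13.6% lower). A downstream window of 10000 bases gave p = 0.2 by the exact permutation test. Of 1240 values for named loci under other settings, 1108 kept their direction and side of the threshold, 119 fell short of it, 9 newly passed and 4 reversed. The latter came from merging on the same strand only: chr17:54419606-54419900 (2.23 on the log2 scale), chr12:67510733-67511349 (-2.3), chr12:10106099-10159506 over Gm5182 (0.50) and chr10:79038714-79046692 (0.17), with limma adjusted p-values of 0.59, 0.55, 0.75 and 0.89. Loci of 1 to 3 TPM stand near the lowest level that a library lists.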
